A study of Mus musculus with 9 samples.

Results

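Mitochondrial ribosomal protein genes are the nuclear genes whose symbols begin with Mrpl (named for the large subunit) or Mrps (named for the small subunit) followed by a number. Every row of the count table with such a symbol was taken, without regard to its values and leaving out annotated pseudogenes, which gave 77 of 24421 genes. RNA was sequenced from 9 tumors grown in the flanks of male athymic Nu/Nu nude mice, which lack mature T cells, after injection of bEnd.3, an endothelioma line of mouse that carries the middle T antigen of polyomavirus. The sources used here give no age for the animals. In the R-propranolol group 5 tumors came from mice given the R-isomer of propranolol intraperitoneally at 6 mg/kg per day, 5 times a week, beginning soon after the cells were injected. In the vehicle group 4 tumors came from mice given ethanol in phosphate-buffered saline on the same schedule. There was 1 library per tumor, every tumor came from the same cell line, and a tumor holds cells of the host as well as bEnd.3 cells.

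Mitochondria carry their own ribosomes, which translate the few mRNAs encoded by mitochondrial DNA, all of them for subunits of the respiratory chain and ATP synthase. All the proteins of these ribosomes are encoded in the nucleus, made in the cytosol and imported. Some descend from the ribosomal proteins of bacteria, while others were added during the evolution of mitochondria and have no bacterial counterpart. Names do not always match places: Mrps18a and Mrps30 are built into the large subunit in mammals, and the product of Mrps36 is now assigned to the alpha-ketoglutarate dehydrogenase complex. By structure the set therefore held 50 large-subunit genes, 26 small-subunit genes and Mrps36.

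All 77 genes passed the filter on low counts, and none had a count of 0 in any tumor. Their counts ran between 178 and 3264 reads per gene and tumor, in libraries of 21084749 to 27852630 gene counts in R-propranolol tumors and 20599904 to 24949010 in vehicle tumors. Levels are given below as CPM, counts scaled to library size with a correction for composition. The means of the 77 genes over the 4 vehicle tumors lay between 9.86 and 82.1 CPM, with a median of 28.8. GENCODE places the genes on 17 chromosomes, with 10 on chromosome 11, 8 on chromosome 17 and 7 on chromosome 6.

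R-propranolol replicate 5 stood apart from the other 8 tumors. The 20 skeletal muscle markers took 15.8% of its gene counts, against at most 0.056% in any other tumor, and the calcium store protein Casq1 had 1580 CPM there against 0.776 to 5.94 CPM elsewhere. The adipocyte markers summed to 5226 CPM in it, against 85.0 to 221 CPM in R-propranolol replicates 1 to 4 and 82.9 to 419 CPM in the vehicle tumors. All 12 proliferation markers were lowest of the 9 tumors in it, with a median of 3.94 log2 CPM against 6.15 to 6.45 elsewhere. In R-propranolol replicate 2 the 8 fibroblast markers took 3.02% of counts, against 1.12% or less in the others. Endothelial markers were present in every tumor: Cdh5, the junctional cadherin, had 93.7 to 234 CPM in R-propranolol tumors and 88.4 to 132 CPM in vehicle tumors. Comparisons of the mitochondrial ribosomal protein genes are therefore given with replicate 5 and without it. In bulk tissue, fewer cells of a type and less RNA per cell cannot be told apart.

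The start regions of these genes are shown first, for 4 genes whose levels are described below. RefSeq windows of 300 bases, 250 before and 50 after the gene start, matched 68 of the 77 genes on GRCm38.p6. Capitals mark matches, on either strand, to GCGCATGC (the core of the NRF1 site), CCGGAAG (the site of ETS factors such as GABPA) or AAGATGGC (the site of YY1), factors known to act at nuclear genes for mitochondrial proteins.
Mrpl42, chr10:95501900-95502199, minus strand: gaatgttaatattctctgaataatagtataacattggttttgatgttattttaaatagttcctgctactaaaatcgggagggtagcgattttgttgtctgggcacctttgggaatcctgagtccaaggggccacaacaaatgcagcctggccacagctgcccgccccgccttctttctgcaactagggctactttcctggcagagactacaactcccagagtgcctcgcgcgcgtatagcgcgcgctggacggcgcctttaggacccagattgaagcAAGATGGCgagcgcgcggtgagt
Mrpl51, chr6:125191950-125192249, plus strand: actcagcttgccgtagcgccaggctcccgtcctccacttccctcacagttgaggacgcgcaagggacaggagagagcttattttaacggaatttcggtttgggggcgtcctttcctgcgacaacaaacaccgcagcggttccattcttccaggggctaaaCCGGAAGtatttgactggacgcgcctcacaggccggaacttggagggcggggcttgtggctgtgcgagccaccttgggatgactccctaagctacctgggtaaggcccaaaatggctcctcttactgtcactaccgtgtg
Mrpl22, chr11:58171414-58171713, plus strand: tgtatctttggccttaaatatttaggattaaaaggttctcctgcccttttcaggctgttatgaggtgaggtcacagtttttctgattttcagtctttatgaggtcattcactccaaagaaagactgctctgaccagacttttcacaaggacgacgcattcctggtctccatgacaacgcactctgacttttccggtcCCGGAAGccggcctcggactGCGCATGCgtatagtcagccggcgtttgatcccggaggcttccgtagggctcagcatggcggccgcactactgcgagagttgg
Mrps18a, chr17:46110754-46111053, plus strand: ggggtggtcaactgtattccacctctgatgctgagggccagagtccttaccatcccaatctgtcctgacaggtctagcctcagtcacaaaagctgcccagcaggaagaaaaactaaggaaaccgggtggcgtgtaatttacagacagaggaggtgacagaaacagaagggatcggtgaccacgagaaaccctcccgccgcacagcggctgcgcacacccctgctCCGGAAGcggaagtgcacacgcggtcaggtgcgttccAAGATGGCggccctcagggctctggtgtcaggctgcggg
Counting the first base of the RefSeq gene as 0, the YY1 match of Mrpl42 began at position 27. The ETS match of Mrpl51 began at position -90. GENCODE starts Mrpl51 further upstream, at base 125191801, so the whole window of Mrpl51 lies within the GENCODE gene. Mrpl22 had an ETS match at position -53 and an NRF1 core at position -33, and Mrps18a had an ETS match at position -26 and a YY1 match at position 11.

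At least 1 of these 3 motifs was found in 36 of the 68 windows (52.9%), against 17.9% of the 15587 windows of protein-coding genes in the table. The ETS letters were in 24 windows (35.3%, against 12.3% of all), the YY1 letters in 12 (17.6%, against 3.36%) and the NRF1 core in 8 (11.8%, against 3.82%). Among the YY1 windows were those of Mrpl42, Mrpl35, Mrpl49, Mrps12 and Mrps18a, and among the NRF1 windows those of Mrpl22, Mrpl33, Mrpl39 and Mrps18b. Motifs of general promoter factors did not stand out in the same way: the Sp1 letters GGGCGG were in 34 of the 68 windows against 48.8% of all, the NF-Y letters CCAAT in 39.7% against 38.8%, and the E-box CACGTG in 7.35% against 8.22%. The TBP letters TATAAA were in 5.88% against 12.9%. The GC content was close (a median of 58.2% against 57.3%), while the windows held a median of 21 CpG pairs against 15, and the part of CpG content in the motif shares was not tested. A match is a run of letters and not a measured binding site.

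**Figure D1:**
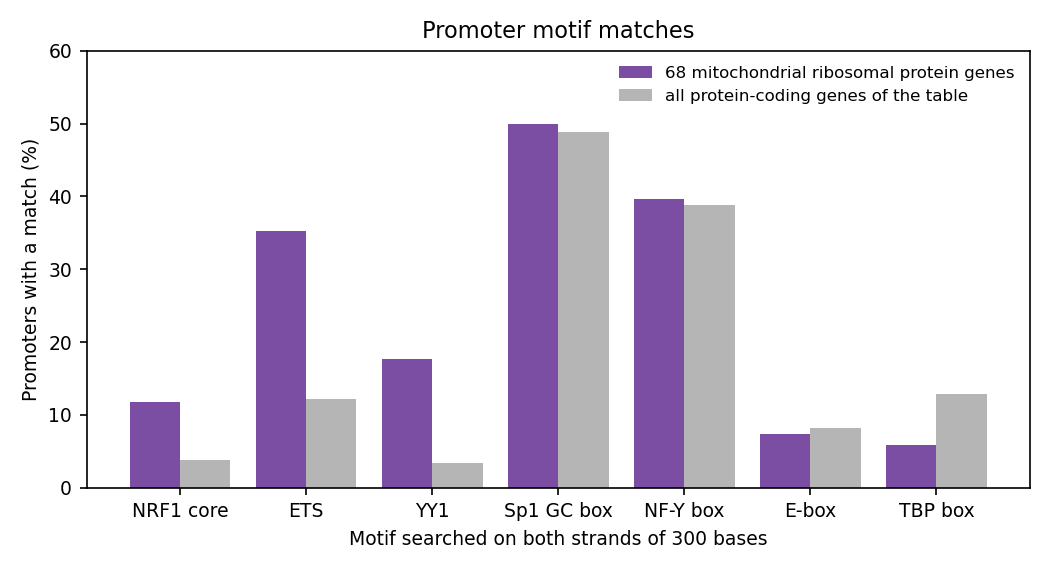
Share of 300-base promoter windows with a match to each motif (y axis, percent), for the 68 mitochondrial ribosomal protein genes with a window (purple) and for all 15587 protein-coding windows of the table (grey). The ETS bars stand at 35.3% and 12.3% and the YY1 bars at 17.6% and 3.36%, while the Sp1 bars are nearly level.

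The genes also shared a feature of position. A neighbor on the opposite strand started within 1000 bases upstream, or overlapped the start by less than 200 bases, for 23 of the 77 genes (29.9%), against 8.18% of 19877 protein-coding genes. Several neighbors belong to other pathways. By GENCODE the start of Mrpl51 lies 100 bases from that of Ncapd2, a condensin subunit of mitotic chromosomes. The bases between these 2 starts lie outside the window shown above. The start of Mrpl57 lies 49 bases from that of Ska3, a kinetochore protein. Mrpl49 pairs at 59 bases with Fau, which encodes a protein of the cytosolic ribosome, and Mrps12 pairs at 172 bases with Sars2, the mitochondrial seryl-tRNA synthetase.

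Levels per length spanned a wide range. CPM per kilobase of the principal transcript, averaged over the vehicle tumors, was highest for Mrpl33 at 137.9 and Mrps21 at 126.9, small proteins of the large and small subunit with bacterial counterparts. Mrpl52 followed at 114.0, then Mrpl14, which lies at the interface of the subunits, at 74.6, and Mrpl30 at 74.1. The lowest were Mrpl47 at 3.31, Mrps25 at 3.57, Mrpl48 at 3.64, Mrps35 at 4.22 and Mrpl19 at 4.41. Mrpl33 and Mrps21 did not differ beyond their spread (coefficients of variation of 13.2% and 6.57%). Averaged over all 9 tumors the extremes differed 37.8-fold, around a median of 24.6, and Mrpl30 (89.2) then stood above Mrpl14 (80.2), with R-propranolol replicate 5 included.

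The order depends on the transcript length used. Over the merged exons of all transcripts, and all 9 tumors, Mrps21 was first, at 80.2 CPM per kilobase, whereas Mrpl33, whose merged exons cover 7326 bases, was 55th at 9.05. Mrps35 and Mrpl48 were then the lowest, at 2.13 and 2.46. Exon bases are shared with another gene for 32 of the 77 genes, for 27 of them on the other strand, and the sources used here give no strand setting for the counting. For Mrps25 this is 4590 of 6576 exon bases, shared with Nr2c2, so its level is uncertain. Mrpl23, Mrpl48 and Mrps36 have annotated pseudogenes with which reads could be shared.

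Apart from R-propranolol replicate 5 the genes varied little between tumors. Over the other 8 tumors the range of a gene ran between 0.14 log2 for Mrps28 and 0.70 log2 for Mrps6, with a median of 0.35, where the median of all 13901 genes tested was 0.55. The coefficient of variation among vehicle tumors had a median of 7.20% (1.17% to 15.9%), against 10.8% for all genes tested. The median over the 77 genes was 4.84, 4.84, 4.93, 4.78 and 5.56 log2 CPM in R-propranolol replicates 1 to 5, against 4.85, 4.91, 4.87 and 4.87 log2 CPM in vehicle replicates 1 to 4. Replicate 5 was the highest, and the other 8 tumors lay between 4.78 and 4.93.

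**Figure D2:**
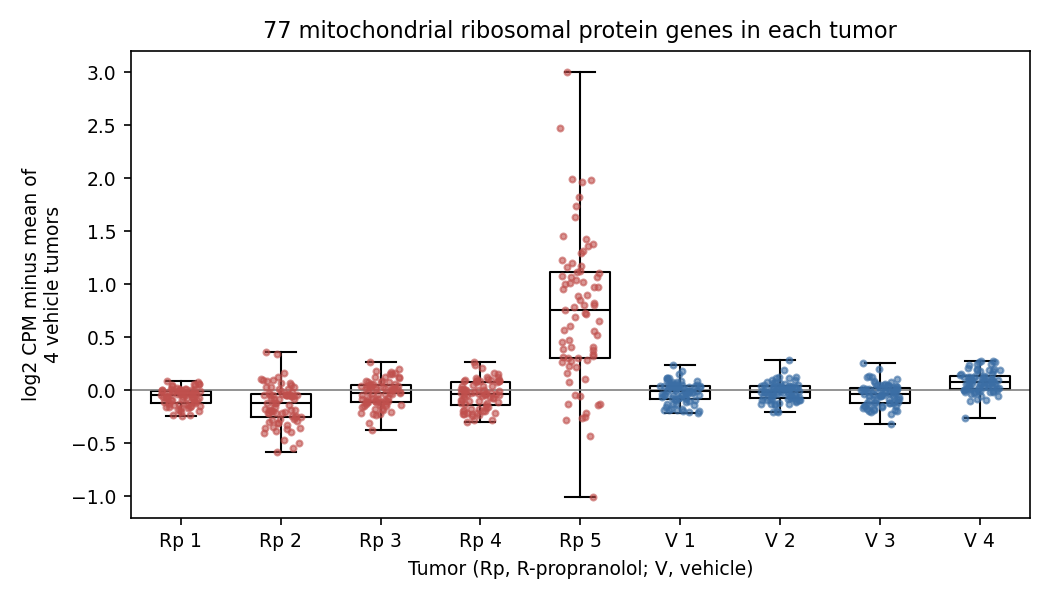
Each point is 1 of the 77 genes in 1 tumor, as log2 CPM minus the gene's mean over the 4 vehicle tumors (y axis), with R-propranolol tumors (Rp, red) left of vehicle tumors (V, blue); boxes show the median and quartiles and whiskers the full range. R-propranolol replicate 5 has a median of 0.76, against medians of -0.12 to -0.03 in R-propranolol replicates 1 to 4 and -0.04 to 0.07 in the vehicle tumors.

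The main comparison asked whether RNA of these genes differed between R-propranolol and vehicle tumors. With edgeR's quasi-likelihood test and Benjamini-Hochberg adjustment over 13901 genes, 0 of the 77 genes had an adjusted p under 0.05, where 0% of all genes did. DESeq2 and limma-voom also called 0 of the 77. At an unadjusted p under 0.05, 0 were higher, against 2.01% of all genes, and 0 were lower, against 0.288% (2 were lower with DESeq2 and 1 with limma-voom). The log2 fold change (R-propranolol over vehicle) was above 0 for 57 genes and below 0 for 20, with a median of 0.14 against 0.03 over all genes. Without replicate 5 these numbers turned round: 15 genes were above 0 and 62 below, the median was -0.07 against 0.01, and 42 of the 77 genes had the opposite sign.

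Mrpl42, a mitochondria-specific protein of the large subunit (chromosome 10, 95480805 to 95501940, minus strand), had the smallest p among genes with a higher mean. It had 26.7, 26.2, 24.6, 25.4 and 217 CPM in R-propranolol replicates 1 to 5, against 26.8, 25.9, 26.5 and 29.0 CPM in vehicle replicates 1 to 4. Only replicate 5 was high, and the other 4 lay within or just below the vehicle values. Its log2 fold change was 1.24 ± 0.74 (SE; adjusted p = 0.876, edgeR), and -0.08 ± 0.07 without replicate 5 (unadjusted p = 0.296, edgeR).

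Mrpl23, the counterpart of a bacterial protein beside the exit of the peptide tunnel, had 14.6, 18.4, 14.3, 12.3 and 80.7 CPM in R-propranolol replicates 1 to 5, against 12.5, 14.99, 15.8 and 14.95 CPM in vehicle replicates 1 to 4. Its log2 fold change was 0.94 ± 0.59 (SE) with all tumors and 0.03 ± 0.14 without replicate 5. The window of Mrpl23 held none of the 3 motifs. Mrpl51, of the mitochondria-specific set, had 37.7, 37.3, 36.4, 38.0 and 152.5 CPM in R-propranolol replicates 1 to 5, against 40.0, 38.9, 34.6 and 40.7 CPM in vehicle replicates 1 to 4. Mrps28, of the small subunit, had 17.6, 18.2, 16.6, 17.5 and 69.6 CPM in R-propranolol replicates 1 to 5, against 17.8, 17.6, 18.02 and 17.99 CPM in vehicle replicates 1 to 4. Replicate 5 was by far the highest in these genes too, and the groups overlapped with and without it. The same held for Mrpl55, Mrpl35, Mrpl48 and Mrpl30, whose log2 fold changes of 0.44 to 0.70 with all tumors were between 0.02 and 0.07 without replicate 5. Mrpl35 had 15.6, 19.5, 20.5 and 19.4 CPM in R-propranolol replicates 1 to 4, against 16.4 to 19.2 CPM in vehicle tumors. Mrpl48 had 19.9 CPM in R-propranolol replicate 2, above the 17.8 CPM of the highest vehicle tumor.

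**Figure D3:**
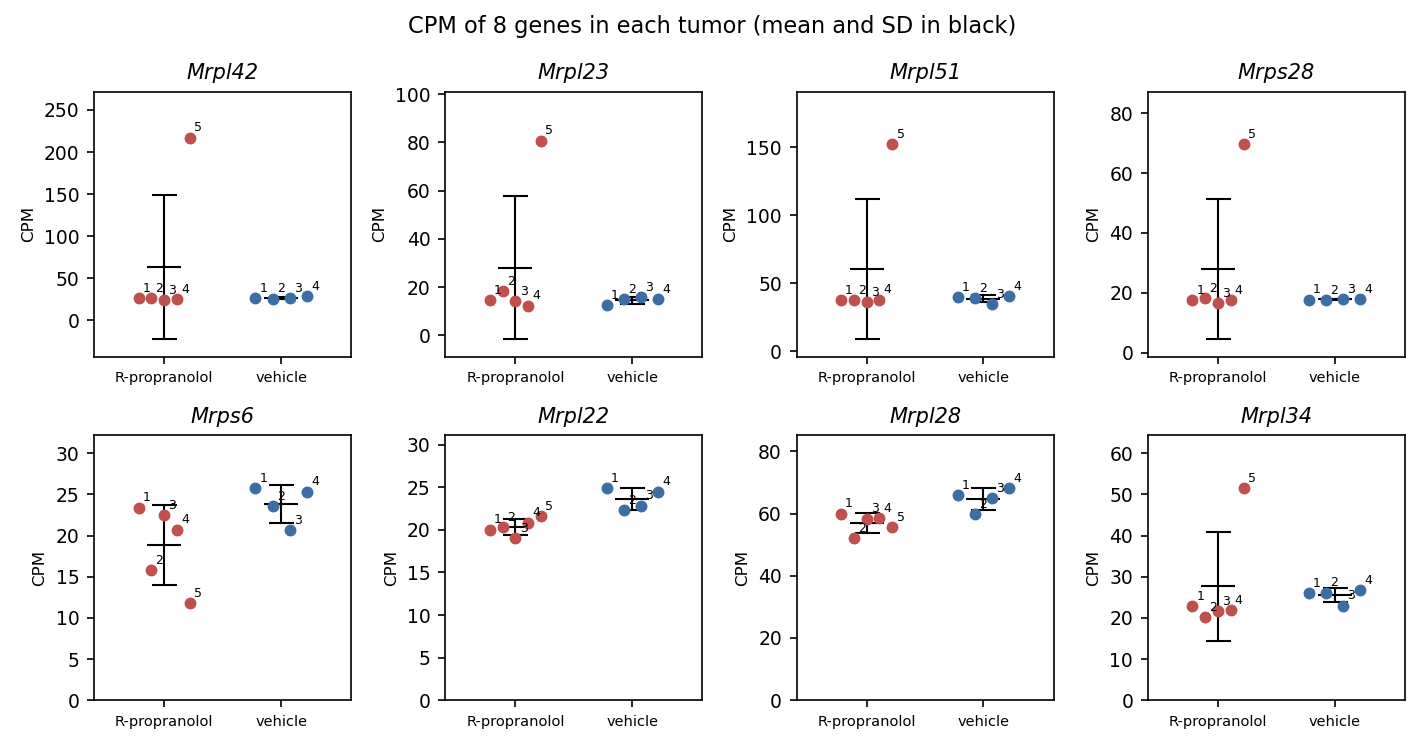
CPM (y axis, from 0 or just below it to hold the error bars) of 8 genes in each tumor, R-propranolol (red) left of vehicle (blue), with replicate numbers beside the points and the mean and SD in black. In the upper row R-propranolol replicate 5 is by far the highest, at 217 CPM for Mrpl42. In the lower row Mrpl22 has 19.0 to 21.6 CPM in R-propranolol tumors and 22.3 to 24.9 CPM in vehicle tumors.

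Mrpl22 was the exception among the 77 genes, in that its groups did not overlap with all 9 tumors. This gene (chromosome 11, 58171661 to 58179565, plus strand) encodes the counterpart of a bacterial protein that lines the peptide exit tunnel. It had 20.04, 20.3, 19.0, 20.9 and 21.6 CPM in R-propranolol replicates 1 to 5, against 24.9, 22.3, 22.9 and 24.5 CPM in vehicle replicates 1 to 4. Every R-propranolol tumor was below every vehicle tumor, replicate 5 included, with means of 20.4 ± 0.96 and 23.6 ± 1.24 CPM (SD, n = 5 and 4). Its log2 fold change was -0.21 ± 0.10 (SE; adjusted p = 0.876, edgeR), so it did not pass the test. This 1 gene of 77 with lower, non-overlapping groups stood beside 0.626% of all genes, and 0 with higher ones beside 0.633%.

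Mrpl28, also of the large subunit, had 59.96, 52.2, 58.4, 58.6 and 55.7 CPM in R-propranolol replicates 1 to 5, against 66.0, 59.8, 65.0 and 68.1 CPM in vehicle replicates 1 to 4. Replicate 1 was just above the lowest vehicle tumor and the other 4 were below all vehicle tumors. The log2 fold change was -0.18 ± 0.08 (SE; adjusted p = 0.876, edgeR).

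Mrps6, of the small subunit, had 23.4, 15.8, 22.5, 20.7 and 11.8 CPM in R-propranolol replicates 1 to 5, against 25.7, 23.6, 20.7 and 25.3 CPM in vehicle replicates 1 to 4. The groups overlapped, and the lowest values were those of replicates 5 and 2, the tumors with the high muscle and fibroblast markers. Mrps6 shares 159 exon bases with Slc5a3 on the same strand. The remaining genes with the smallest p among those with a lower mean (Mrpl49, Mrps5, Mrps9, Mrps12 and Mrpl20) had log2 fold changes between -0.19 and -0.08, all with overlapping groups.

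Without R-propranolol replicate 5, 13743 genes were tested with edgeR and 0 of the 77 had an adjusted p under 0.05, where 0% of all genes did. At an unadjusted p under 0.05, 0 were higher, against 2.65% of all genes, and 4 were lower (5.19%), against 1.13%. Mrpl22 had a log2 fold change of -0.24 ± 0.07 (SE; unadjusted p = 0.011, edgeR) and Mrpl28 one of -0.18 ± 0.07 (SE; unadjusted p = 0.032, edgeR). Mrpl34 stood at -0.23 ± 0.08 (SE; unadjusted p = 0.019, edgeR) and Mrpl36 at -0.23 ± 0.10 (SE; unadjusted p = 0.041, edgeR). All are large-subunit proteins with bacterial counterparts, and Mrpl34 and Mrpl36, both very small proteins, were named after their values were seen. The count of 4 depended on the tumors kept: without vehicle replicate 4 as well it was 1, against 1.20% of all genes. Without vehicle replicates 1 and 3 as well it was also 1, against 0.497%. Without R-propranolol replicate 2 as well it was 3, against 1.82%. Groups did not overlap for 4 lower genes, against 1.09% of all genes, and for 0 higher ones, against 1.83%. The 4 were Mrpl22, Mrpl34, Mrpl36 and the mitochondria-specific Mrpl40, named in the same way.

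Mrpl34 had 22.9, 20.3, 21.7 and 21.8 CPM in R-propranolol replicates 1 to 4, against 26.1, 26.1, 23.0 and 26.7 CPM in vehicle replicates 1 to 4. Mrpl36 had 16.4, 16.9, 14.8 and 17.7 CPM in R-propranolol replicates 1 to 4, against 18.7, 17.996, 18.5 and 21.9 CPM in vehicle replicates 1 to 4. In replicate 5 they had 51.5 and 40.4 CPM, so that with all 9 tumors both fold changes were above 0. The gaps between groups were small: the lowest vehicle value of Mrpl34 was 23.0 CPM beside a highest R-propranolol value of 22.9 CPM.

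By tumor, 59, 61, 42, 47 and 11 of the 77 genes were below their vehicle mean in R-propranolol replicates 1 to 5, against 43, 44, 49 and 17 in vehicle replicates 1 to 4. R-propranolol replicates 3 and 4 were thus within the range of the vehicle tumors, replicates 1 and 2 were beyond it on the low side, and vehicle replicate 4 stood out on the high side. Each vehicle tumor is part of the mean it was set against, whereas R-propranolol tumors are not, so the 2 sets of counts are not fully alike. Replicate 2 was the tumor with the high fibroblast markers. With replicates 2 and 5 both set aside the median log2 fold change was -0.05 against 0.00 over all genes. Of the 77 genes 60 were then below 0, against 51.0% of all genes, and 3 were lower at an unadjusted p under 0.05 (edgeR), against 1.82%. Marker lists also differed between the groups without replicate 5. Of the 20 skeletal muscle markers 10 passed the filter on low counts. All 10 were lower at an unadjusted p under 0.05 (edgeR, a median log2 fold change of -3.24), against 1.13% of all genes. They follow the same tumors, whose sums are given below, so they are not 10 separate results. All 9 adipocyte markers were below 0 (-1.45) and all 7 hepatocyte markers above it (2.26). All 10 endothelial markers were above 0 (0.50), as were 7 of 8 fibroblast markers (0.90) and 6 of 8 macrophage markers (0.09). Of 12 proliferation markers 10 were below 0 (-0.06). Groups overlapped for every tested marker of these lists. The 8 hepatocyte markers summed to 35.8 CPM in vehicle replicate 2, within the 20.9 to 94.4 CPM of R-propranolol replicates 1 to 4. The 20 muscle markers summed to 10.2 to 20.04 CPM in R-propranolol replicates 1 to 4, against 511 and 500.2 CPM in vehicle replicates 1 and 3 and 12.3 and 10.7 CPM in vehicle replicates 2 and 4. With R-propranolol replicate 5 and vehicle replicates 1 and 3 all left out, 69 of the 77 genes were below 0, against 46.7% of all genes. Lower at an unadjusted p under 0.05 (edgeR) was 1, against 0.497%. The part of these markers in the values of the 77 genes was not tested. Scaling moved these counts: with library size alone as the scale, 72 of the 77 genes were below 0 without replicate 5 in place of 62, and 29 were above 0 with all tumors in place of 57. All genes moved too: 62.9% were then below 0 without replicate 5 in place of 46.3%, and 64.2% with all tumors in place of 45.7%. Without replicate 5 the median of the 77 genes minus that of all genes was -0.08 at both scales.

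**Figure D4:**
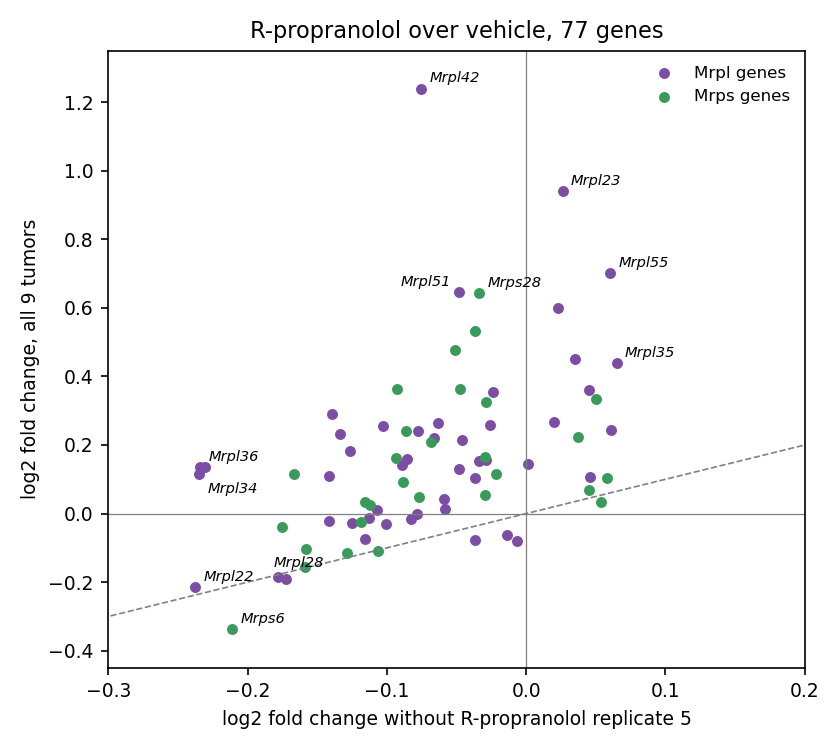
Log2 fold change of R-propranolol over vehicle for each of the 77 genes with all 9 tumors (y axis) against the same without R-propranolol replicate 5 (x axis), for genes named Mrpl (purple) and Mrps (green); the dashed line marks equal values. With all tumors 57 genes lie above 0, and without replicate 5 only 15 do; Mrpl42 is at 1.24 and -0.08.

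R-propranolol replicate 5 held the highest of the 9 values for 64 of the 77 genes (83.1%) and the lowest for 4 (5.19%). Over all genes tested it was highest for 36.5% and lowest for 42.1%. Set against the mean of R-propranolol replicates 1 to 4, the genes differed in it by a median of 0.76 log2, where all genes had -0.05. Of the 77 genes 30 were higher in it by 1 log2 or more, as were 3285 of the 13901 genes tested. Lower by 1 log2 or more were 0 of the 77, against 2865 of all genes tested. These sizes depend on the scale: with library size alone the median was 0.25, against -0.55 for all genes, 9 genes reached 1 log2 and 40 were highest in replicate 5. Counts over all genes were not taken at that scale. As a share of gene counts the 77 genes held 0.319% in replicate 5, against 0.222% to 0.26% in R-propranolol replicates 1 to 4. The spread among them was wide, between 3.08 log2 for Mrpl42 and -0.78 log2 for Mrps6. After Mrpl42 came Mrpl23 (2.45), Mrpl51 (2.03) and Mrps28 (2.00), and at the other end stood Mrps6, Mrpl39 (-0.43), Mrpl21 (-0.27) and Mrpl13 (-0.22). Mrpl13 had 68.4 CPM in replicate 5, against 71.4 to 84.0 CPM in R-propranolol replicates 1 to 4. These differences have no replicate, since they describe 1 tumor, and the part of its muscle and adipocyte markers and of its low proliferation markers in them was not tested.

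By structure, the 50 large-subunit genes had a median difference of 0.92 log2 in replicate 5 and the 26 small-subunit genes 0.61. The 15 small-subunit genes with bacterial counterparts had a median of 0.26 (quartiles 0.05 and 1.05), and 9 of them were highest in replicate 5. The 10 mitochondria-specific genes of the small subunit had a median of 0.75 (quartiles 0.60 and 0.93), with all 10 highest in replicate 5. In the large subunit the medians were 0.90 for the 29 genes with bacterial counterparts (quartiles 0.33 and 1.16) and 0.86 for the 20 mitochondria-specific genes (quartiles 0.49 and 1.29). Mrps18a and Mrps18b were counted as mitochondria-specific, although they belong to the S18 family with Mrps18c, which was counted with the bacterial counterparts. Mrpl55 and Mrps28 were put in neither class. The class medians hold for this assignment only. The quartile ranges of these subsets overlapped, and differences between them in this 1 tumor were not tested.

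**Figure D5:**
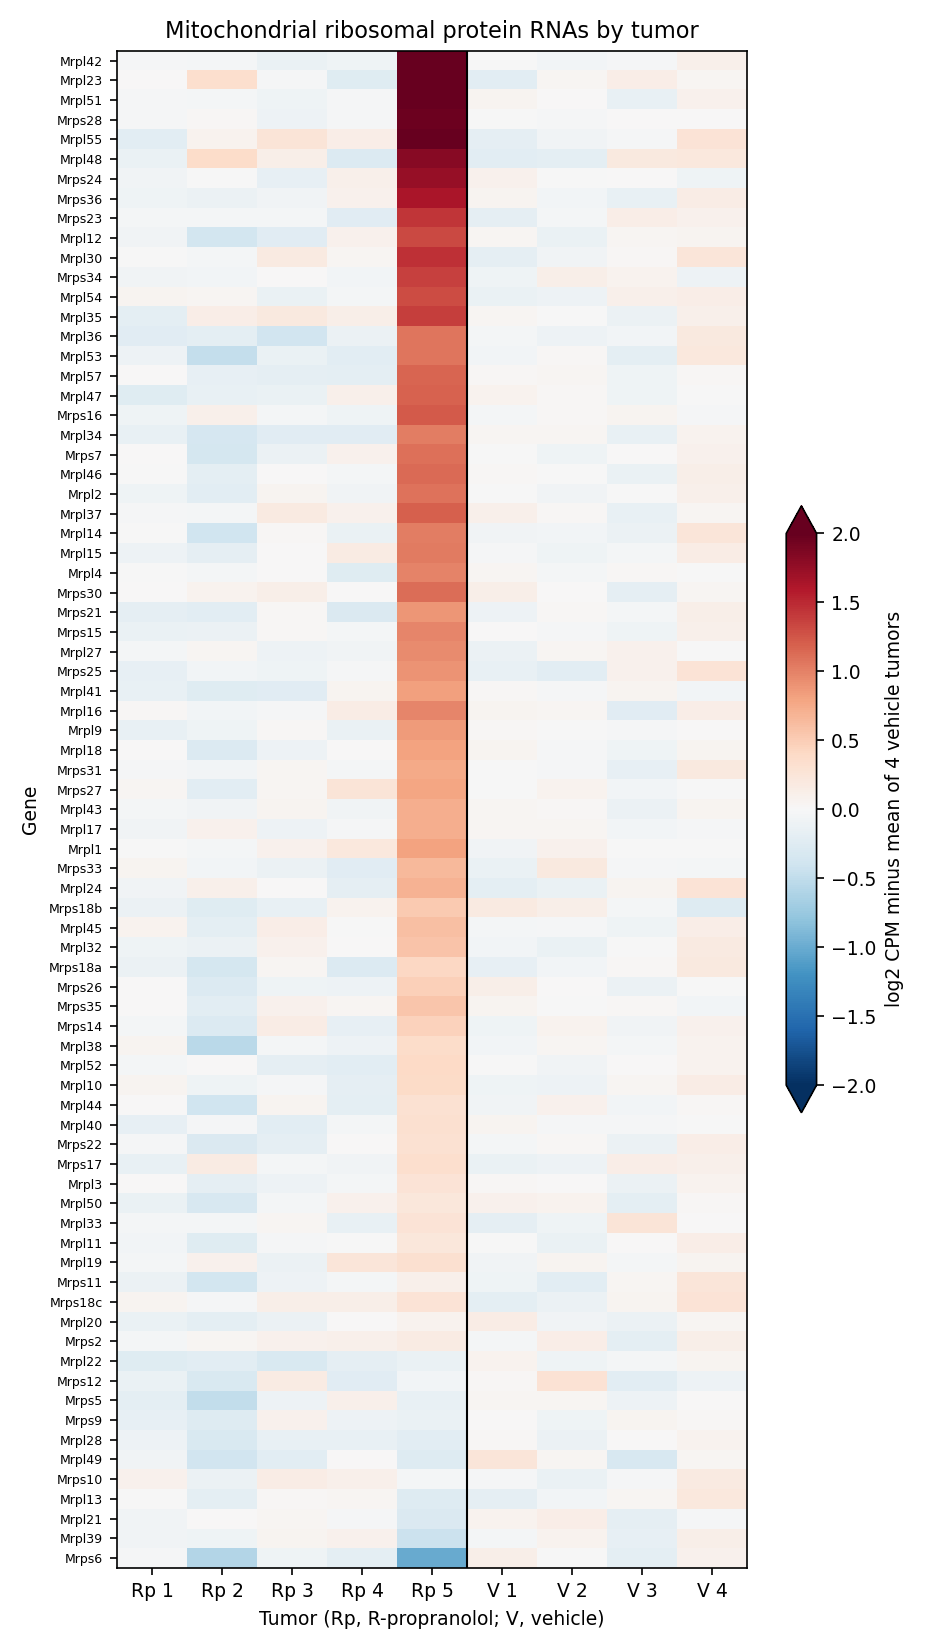
The 77 genes (rows, ordered by their difference in R-propranolol replicate 5 from R-propranolol replicates 1 to 4) in each tumor (columns, R-propranolol left of vehicle), colored by log2 CPM minus the mean of the 4 vehicle tumors; colors end at 2 log2 in both directions. The column of replicate 5 is red for most genes, with Mrpl42 at the top and Mrps6, blue, at the bottom, and the other 8 columns are pale.

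The 3 paralogs of the S18 family go into different places in the ribosome, Mrps18a into the large subunit and Mrps18b and Mrps18c into the small. Mrps18a had 42.9, 36.3, 47.7, 38.3 and 61.8 CPM in R-propranolol replicates 1 to 5, against 41.7, 44.9, 47.0 and 53.0 CPM in vehicle replicates 1 to 4. Mrps18b averaged 26.8 ± 6.16 CPM in R-propranolol tumors and 26.2 ± 3.48 CPM in vehicle tumors, and Mrps18c averaged 31.2 ± 2.43 and 29.1 ± 4.28 CPM in the same groups (SD, n = 5 and 4). Groups overlapped for all 3. Per kilobase Mrps18a was at 52.0 CPM, Mrps18c at 47.5 and Mrps18b at 24.6. Mrps18b shares 638 exon bases with an antisense gene.

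Of the 23 pairs that share a start region, the gene and its neighbor lay on the same side of R-propranolol replicates 1 to 4 in replicate 5 in 11 and on opposite sides in 12. For example, Mrpl51 was 2.03 log2 above R-propranolol replicates 1 to 4, whereas its neighbor Ncapd2 was at -2.03. Mrpl57 was at 1.29 beside -2.68 for Ska3, and Mrpl27 at 0.99 beside -2.05 for Eme1, an endonuclease subunit of DNA repair. Other pairs lay on the same side: Mrpl36 was at 1.30 beside 2.00 for Ndufs6, a subunit of respiratory complex I, and Mrpl54 at 1.32 beside 1.37 for Apba3. These neighbors were named after their values were seen.

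Other genes of mitochondrial translation were read as lists. For 7 ribosomal proteins and ribosome-bound factors also known by other names (1 of them, Mrpl57, is among the 77), 0 passed the adjusted threshold, 6 had a log2 fold change above 0 with all tumors and 0 without replicate 5. Among them Chchd1, of the small subunit, had 54.9 CPM in replicate 5, against 19.0 to 21.4 CPM in R-propranolol replicates 1 to 4 and 21.3 to 22.3 CPM in vehicle tumors. For the 15 translation factors 0 passed, the median log2 fold change was 0.15 with all tumors and -0.05 without replicate 5, and 13 were highest in replicate 5. Gfm2, which recycles the ribosome after termination, had 97.0 CPM there, against 21.0 to 23.9 CPM in R-propranolol replicates 1 to 4 and 20.2 to 24.4 CPM in vehicle tumors. Taco1, known as a translational activator of cytochrome oxidase subunit 1, had 49.1 CPM there, against 8.39 to 11.1 CPM in the vehicle tumors.

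Of 25 genes for assembly of the mitochondrial ribosome 0 passed the adjusted threshold, with medians of 0.06 with all tumors and -0.08 without replicate 5. Groups did not overlap for 2 of the 25, both lower, against 0.626% of all genes. Rpusd4, a pseudouridine synthase that acts on the large ribosomal RNA, had 14.2, 12.8, 12.4, 13.8 and 12.2 CPM in R-propranolol replicates 1 to 5, against 15.4, 15.95, 15.3 and 15.8 CPM in vehicle replicates 1 to 4. Every R-propranolol tumor was below every vehicle tumor, replicate 5 included. The log2 fold change was -0.25 ± 0.11 (SE; adjusted p = 0.876, edgeR). The other was Mterf3, a mitochondrial factor of ribosome assembly named after its values were seen, with 14.4 to 17.4 CPM in R-propranolol tumors and 17.5 to 18.6 CPM in vehicle tumors (log2 fold change -0.15 ± 0.11, SE). Afg3l2, a subunit of the protease that matures Mrpl32, averaged 130.9 ± 18.9 CPM in R-propranolol tumors and 111.0 ± 15.04 CPM in vehicle tumors (SD, n = 5 and 4), with overlapping groups.

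The 20 mitochondrial aminoacyl-tRNA synthetase and amidotransferase genes had 0 past the adjusted threshold and medians of 0.11 and, without replicate 5, -0.04. In replicate 5 they differed less, by 0.36 log2. The asparaginyl enzyme Nars2 averaged 11.1 ± 1.10 CPM in R-propranolol tumors and 9.26 ± 0.99 CPM in vehicle tumors (SD, n = 5 and 4), and the alanyl enzyme Aars2 averaged 23.5 ± 4.17 and 20.1 ± 0.96 CPM in the same groups. Of the 9 genes for transcription and replication of mitochondrial DNA 0 passed. Ssbp1, which coats single-stranded mitochondrial DNA, had 27.5, 25.2, 28.9, 25.5 and 26.6 CPM in R-propranolol replicates 1 to 5, against 30.9, 32.3, 30.8 and 28.7 CPM in vehicle replicates 1 to 4. Only replicate 3 reached the lowest vehicle tumor, and the log2 fold change was -0.20 ± 0.10 (SE; adjusted p = 0.876, edgeR). The elongation factor Tefm had 14.96 CPM in replicate 5, against 4.14 to 4.62 CPM in R-propranolol replicates 1 to 4 and 3.44 to 5.51 CPM in vehicle tumors. Transcripts encoded by mitochondrial DNA itself were not analysed here.

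Among 10 regulators of mitochondrial genes 0 passed the adjusted threshold. Yy1, whose product binds the motif described above, had 94.7, 98.2, 99.5, 96.2 and 96.4 CPM in R-propranolol replicates 1 to 5, against 83.4, 85.5, 81.2 and 88.3 CPM in vehicle replicates 1 to 4. All R-propranolol tumors lay above all vehicle tumors, with replicate 5 in the middle of its group. The log2 fold change was 0.20 ± 0.07 (SE; unadjusted p = 0.019 and adjusted p = 0.876, edgeR). The other factors of the 3 motifs, named for that reason, had overlapping groups: Nrf1 averaged 37.8 ± 7.54 CPM in R-propranolol tumors and 37.7 ± 1.91 CPM in vehicle tumors, and Gabpa averaged 73.8 ± 5.72 and 73.9 ± 3.40 CPM in the same groups (SD, n = 5 and 4).

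In replicate 5 the regulators did not go one way. Nrf1 had 24.8 CPM there, against 39.0 to 44.0 CPM in R-propranolol replicates 1 to 4. The coactivator Ppargc1b, which drives mitochondrial gene expression in oxidative tissues, had 32.0 CPM there, against 1.72 to 3.14 CPM in R-propranolol replicates 1 to 4 and 1.67 to 2.62 CPM in vehicle tumors. The median of the 10 regulators in replicate 5 was -0.49 log2 relative to R-propranolol replicates 1 to 4.

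The proteins of the cytosolic ribosome gave a different picture. Of 85 such genes 80 were tested and 0 passed, with a median log2 fold change of 0.09 with all tumors and 0.08 without replicate 5, against -0.07 for the mitochondrial set without it. Without replicate 5, 11 of the 80 (13.8%) were below 0, against 62 of the 77 mitochondrial genes (80.5%) and 46.3% of all genes. The median over the 85 genes was 8.50, 8.82, 8.87 and 8.58 log2 CPM in R-propranolol replicates 1 to 4. In vehicle replicates 1 to 4 it was 8.50, 8.58, 8.70 and 8.82 log2 CPM, so the groups overlapped. Counts for this set were not taken at other scales. In replicate 5 the cytosolic genes differed from R-propranolol replicates 1 to 4 by a median of 0.07 log2, against 0.76 for the mitochondrial genes. The difference between the sets was not tested.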

How the data were processed

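RNA of 9 allografted tumors was measured by RNA-seq (NEBNext Ultra kit, paired reads of 150 bases). The deposited values are raw counts per gene symbol, which the authors made, per the submitters' processing notes, with STAR and HTSeq on mm10. The sources used here give no versions, annotation or strand setting. HTSeq's rows that name no gene stayed out of library sizes: 13.4% to 15.4% of reads hit no feature, 1.81% to 1.98% were ambiguous and 3.46% to 7.86% aligned at more than 1 place. The titles of vehicle replicates 1 and 2 share a number whose meaning is not stated, and both were kept as separate samples. No 2 libraries agreed within sampling noise. Nothing says how libraries were batched, and p-values measure the spread between these tumors.

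Counts were tested with edgeR 4.0.16 in R 4.3.3 (filterByExpr with a minimum count of 10 and total of 15, TMM scaling, quasi-likelihood test, Benjamini-Hochberg adjustment over all genes), an analysis also tested on simulated data. CPM use TMM-scaled library sizes, and log2 CPM a prior count of 0.25. Groups not overlapping means that every value of one group exceeds every value of the other. Alternatives were DESeq2 1.42.0 and its size factors, library size alone, other filters, limma-voom (limma 3.58.1) with and without quality weights, a replicate block, vehicle replicates 1 and 2 summed, and leaving out each tumor.

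The genes and lists were chosen with earlier results of these data known. Named were the 8 genes with the smallest p in each direction, the 5 highest and 5 lowest per kilobase, the Mrps18 paralogs, the 4 that differed most in each direction in R-propranolol replicate 5, and the 2 smallest p of each other list. Others are given as examples, for a stated reason, or as named after their values were seen. Places are from GENCODE M21 on GRCm38, and promoter windows, the first listed for each gene, from RefSeq on GRCm38.p6.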

Additional observations from a re-analysis of the deposited data

Results flagged for a closer look

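In R-propranolol replicate 5 the level lay far from the other 4 R-propranolol tumors, by Dixon's test at the 95% level, for 10 of the 30 named genes and for the median over the 77 genes (5.56 log2 CPM). Many of the named genes were chosen by values that this tumor carries, so this describes them and is no test. Over all 77 genes 36 were high by the same measure and 0 low. The same count was not taken over all genes tested, of which replicate 5 was highest for 36.5% and lowest for 42.1%. The 36 can therefore not be read as particular to this set. The values were 217 CPM for Mrpl42, 80.7 for Mrpl23, 39.1 for Mrpl55, 46.4 for Mrpl35, 69.6 for Mrps28, 152.5 for Mrpl51, 134.1 for Mrpl30, 104.7 for Mrps21, 25.1 for Mrpl47 and 39.97 for Mrps25. All 11 were high and in the same tumor, out of 62 groups of values examined. Chance gives such a gap in about 1 of 20 groups, a rate that does not apply to genes chosen in this way or to values that share 1 tumor.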

How the results depend on the processing

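In the settings run, 0 of the 77 genes had an adjusted p under 0.05 and 0 were higher at an unadjusted p under 0.05. The number lower at an unadjusted p under 0.05 was 0 in the main analysis, against 0.288% of all genes. It was 2 with library size alone (0.496% of all genes) and with DESeq2 (0.691%), and 1 with limma-voom (0.374%). It was 3 with quality weights (2.42%) and 3 under the replicate block (0.327%). Leaving out 1 tumor gave 0 to 4, the highest without R-propranolol replicate 5 (1.13%) and 1 without vehicle replicate 2 (0.184%). Genes with a log2 fold change above 0 numbered 57 in the main analysis, where 45.7% of all genes were below 0. They numbered 29 with library size alone (64.2% of all genes below 0), 14 with quality weights (51.1%) and 14 under the replicate block (48.8%). Leaving out 1 tumor gave 15 to 64, the lowest without R-propranolol replicate 5 (46.3%). The median log2 fold change of 0.14 was between -0.07 and 0.23 when 1 tumor was left out, and -0.07 under the replicate block, which drops R-propranolol replicate 5. Correlations of same-numbered deviations were 0.03, 0.01, -0.57 and 0.40. They cannot decide whether the replicate numbers pair the tumors, since differently numbered tumors were not compared.

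Further settings were chosen after seeing the data. With R-propranolol replicate 5 left out, DESeq2 size factors gave 4 lower genes, against 1.11% of all genes, and 15 above 0, where 45.4% of all genes were below 0. Library size alone gave 6 lower, against 2.34%, and a median of -0.12, against -0.04 over all genes. It gave 5 above 0, where 62.9% of all genes were below 0. Leaving out R-propranolol replicates 2 and 5 gave 3 lower, against 1.82% of all genes, and 17 above 0, where 51.0% of all genes were below 0. Leaving out R-propranolol replicate 5 and vehicle replicate 4 gave 1 lower, against 1.20%, and 25 above 0, where 45.4% were below 0. With R-propranolol replicate 5 left out, vehicle replicates 1 and 2 summed gave 4 lower, against 0.914% of all genes, and 11 above 0, where 48.4% were below 0. Leaving out vehicle replicates 1 and 3 with R-propranolol replicate 5 gave 1 lower, against 0.497%, and 8 above 0, where 46.7% were below 0. The cause of these shifts was not tested. Of 1367 values of named genes under alternatives, 120 moved by more than the spread between replicates. With 5 and 4 tumors, 0 of 13901 genes passed adjustment in the main analysis, whatever the size of their change.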
